A study of Homo sapiens with 5 samples.

Results

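The genes described here encode the folding, secretion-entry, degradation and stress-sensing machinery of the endoplasmic reticulum, the compartment in which secreted and membrane proteins are folded. The list names 43 genes, listed by function, and sorted into chaperones, disulfide enzymes, translocation, degradation and sensors. A gene was measured where a probe set of the array (a group of short probes for 1 transcript) named it alone, and of several such probe sets the one of highest mean level on the 5 arrays stood for it. This gave values for 38 of the 43, among 12165 genes in all. CRELD2, DNAJB11, SEC61G, SYVN1 and SELENOS were not analysed here. A filter removed the dimmest 40% of probe sets, which 37 of the 38 passed. The exception was ERN1.

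The samples were LNCaP cells, a line from a human prostate cancer that responds to androgen, grown in RPMI medium with foetal bovine serum. Treated cells received celastrol, a triterpenoid from the thunder god vine, at 1.25 µM for 6 h (2 arrays). Control cells received its solvent DMSO for 6 h (3 arrays). In the titles the arrays are biological replicates, with nothing on whether the cultures were separate, so the p-values may measure only technical spread. The free-text description of the DMSO samples mentions celastrol, and the titles and treatment protocol were followed. Levels are log2(intensity + 1), and a change is the mean of both celastrol arrays minus the mean of DMSO replicates 1 and 2 on that scale. In a culture measured in bulk, less RNA per cell and fewer cells of a kind cannot be told apart.

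The array labelled DMSO replicate 3 stood apart, with a correlation of 0.843 to 0.844 with the other arrays over all probe sets, while those correlated with one another at 0.994 to 0.998. Luminal prostate markers were lower there by over 2-fold for 9 of the 10 measured. Markers of B cells and other leukocytes were higher there by over 2-fold for 9 of 12. The median luminal marker stood at 4.50 on it against 9.59 to 9.67 on the other 4 arrays. The median leukocyte marker stood at 9.12 on it against 4.25 to 4.35. The comparison therefore uses the other 4 arrays, and this array is shown apart. Its label as an LNCaP sample goes against these markers.

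Proteins entering the endoplasmic reticulum pass the SEC61 channel, are held by the HSP70-type chaperone BiP and by lectin chaperones, and receive disulfide bonds from the PDI family. Chains that fail to fold are drawn back to the cytosol and degraded. When unfolded chains accumulate, the membrane sensors IRE1, PERK and ATF6 start the unfolded protein response, in which XBP1 and ATF6 act on genes of the machinery itself and PERK acts through ATF4. Prostate luminal cells are secretory and carry much of this machinery.

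The response acts through short promoter elements, so the promoters of the listed genes were searched for them. The sequences are those of RefSeq on GRCh38.p14, from 250 bases before to 50 bases after a gene's start. They cover 41 of the 43 genes, in 51 windows because some genes have several starts. PDIA3 and DERL1 had no entry. ERSE, the element bound by ATF6 together with NF-Y, was searched as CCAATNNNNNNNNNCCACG on both strands. It was found in 8 of the 41 genes. By window it was found in 10 of the 51, or 19.6%, with the same CANX site counted in several overlapping windows. The share was 0.0769% of all 35116 windows and 0.149% of the 10044 windows of tested genes. The ERSE matches of the measured genes are shown on the strand that reads CCAAT first, with the fixed letters in capitals, because this element was found in more of these genes than any other searched.
HSPA5 (chr9:125241391-125241409, minus strand): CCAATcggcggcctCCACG
HSP90B1, first site (chr12:103930216-103930234, plus strand): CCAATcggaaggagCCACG
HSP90B1, second site (chr12:103930321-103930339, minus strand): CCAATcgcgccgcaCCACG
XBP1 (chr22:28800603-28800621, minus strand): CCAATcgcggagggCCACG
PDIA6 (chr2:10812853-10812871, minus strand): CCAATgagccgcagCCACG
CANX (chr5:179698778-179698796, plus strand): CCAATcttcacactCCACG
CALR (chr19:12938384-12938402, minus strand): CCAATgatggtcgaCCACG
SERP1 (chr3:150546710-150546728, plus strand): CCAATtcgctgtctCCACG
The last gene with an ERSE was CRELD2. The shorter ERSE-II, searched as ATTGG and CCACG with any 1 base between them, was found in 3 of the 41 genes and in 5.88% of their windows, against 0.0541% of all windows and 0.119% of those of tested genes. Its matches are shown the same way, and HYOU1 holds the same letters at both of its sites.
HERPUD1 (chr16:56932025-56932035, plus strand): ATTGGgCCACG
SDF2L1 (chr22:21642114-21642124, minus strand): ATTGGtCCACG
HYOU1, first site (chr11:119057380-119057390, plus strand): ATTGGaCCACG
HYOU1, second site (chr11:119057274-119057284, plus strand): ATTGGaCCACG
A match is a description of letters and not a site shown to be used, and many of these genes are textbook carriers of the element.

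Of the other elements, the UPRE core TGACGTGG, read by XBP1 and ATF6, was found in DNAJC10, HYOU1, SEC62, SSR3 and VCP, which is 9.80% of their windows against 0.729% of all and 0.966% of those of tested genes. In HYOU1 it overlaps the first ERSE-II. The heat shock element (GAA, TTC and GAA, each 2 bases apart) was found only in SERPINH1 among the 41 genes, as GAAacTTCtgGAA on the minus strand of chr11:75562177-75562189. The window share was 1.96% for these genes, 0.490% for all and 0.368% for tested genes. The C/EBP-ATF element TTNCATCA, to which ATF4 and its partners bind, was found in HERPUD1 alone, with shares of 1.96%, 3.62% and 2.13%, which is no excess. The 250 bases before the start of 4 genes are printed below with the matched fixed letters in capitals. In SDF2L1 and CALR the match lies on the opposite strand, so the capitals there read as its complement. HSPA5 and SDF2L1 rose with celastrol, HERPUD1 had the largest change of a degradation gene, and CALR carries an ERSE and had a change near 0.
HSPA5 (chr9:125241344-125241593, minus strand): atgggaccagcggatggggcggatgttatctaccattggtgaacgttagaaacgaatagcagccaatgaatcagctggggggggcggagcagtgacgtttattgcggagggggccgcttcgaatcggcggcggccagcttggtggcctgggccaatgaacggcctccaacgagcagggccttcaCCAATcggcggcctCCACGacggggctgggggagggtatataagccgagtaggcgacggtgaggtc
SDF2L1 (chr22:21642052-21642301, plus strand): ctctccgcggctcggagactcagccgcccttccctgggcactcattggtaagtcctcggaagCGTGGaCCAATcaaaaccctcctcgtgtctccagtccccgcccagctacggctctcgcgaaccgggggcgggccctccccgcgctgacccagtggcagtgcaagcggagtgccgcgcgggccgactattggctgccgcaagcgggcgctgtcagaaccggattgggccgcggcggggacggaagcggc
HERPUD1 (chr16:56931892-56932141, plus strand): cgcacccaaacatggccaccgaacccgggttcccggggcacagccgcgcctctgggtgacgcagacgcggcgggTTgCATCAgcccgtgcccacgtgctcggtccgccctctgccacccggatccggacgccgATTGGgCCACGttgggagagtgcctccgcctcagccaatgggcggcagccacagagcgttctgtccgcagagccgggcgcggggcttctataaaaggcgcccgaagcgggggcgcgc
CALR (chr19:12938359-12938608, plus strand): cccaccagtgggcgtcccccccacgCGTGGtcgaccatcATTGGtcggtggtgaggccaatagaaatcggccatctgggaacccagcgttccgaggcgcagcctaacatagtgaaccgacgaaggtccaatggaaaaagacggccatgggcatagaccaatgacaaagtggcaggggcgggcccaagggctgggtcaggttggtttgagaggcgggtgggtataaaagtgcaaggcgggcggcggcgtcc

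The members called higher with celastrol were chaperones and their helpers. Genes of other functions, such as HERPUD1 at 1.14, also had changes above 0 but were not called. HSPA5, SDF2L1, MANF, DNAJB9 and DNAJC3 passed the threshold (limma adjusted p under 0.05 over all probe sets kept), by 1.46-fold to 2.37-fold. These are 5 of the 37 members tested, where 0.58% of the 8108 genes tested were called higher and 1.06% in either direction. No member fell by limma: 0 were called lower, and 0 had an unadjusted p under 0.05 on the lower side, against 0.481% and 12.4% of all genes. With no dim filter the limma test called 0 members and 0.00822% of all genes in each direction, so the calls rest on leaving out dim probe sets, and they were lost whichever of the 4 arrays was left out. Both celastrol arrays lay above both DMSO arrays for 22 of 37 members, where this held for 16.4% of all genes, and below both for DERL1 and OS9, where it held for 26.5%. The change was above 0 for 30 of 37 members and for 42.3% of all genes, and its median was 0.15 for members and -0.02 for all genes. Without DMSO replicate 1 the members' median was 0.0848.

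**Figure D1:**
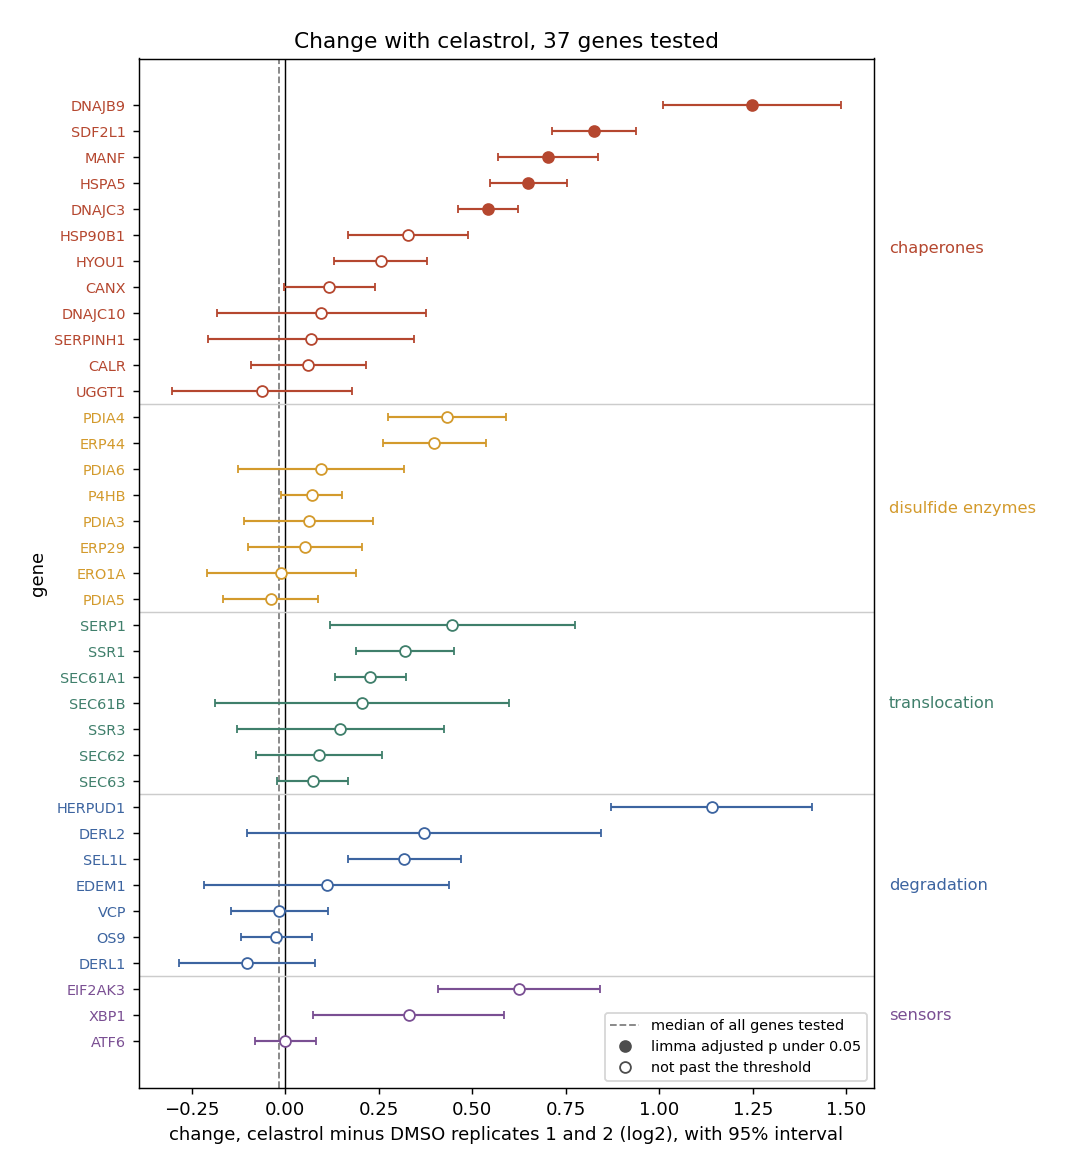
Change of each of the 37 tested genes (celastrol minus DMSO replicates 1 and 2, log2) with its 95% interval from limma, ordered within each function, and the median of all genes as a dashed line. The 5 filled points, from DNAJC3 at 0.54 to DNAJB9 at 1.25, passed the threshold; all 5 are chaperones or their helpers.

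HSPA5 encodes BiP, the chaperone of the lumen that also holds the sensors inactive. It stood at 11.96 and 11.91 on the celastrol arrays and at 11.29 and 11.28 on DMSO replicates 1 and 2. The gap between groups was many times the gap within them, and HSPA5 rose by 0.65 (SE 0.0333, limma adjusted p = 0.0399), a 1.57-fold change. On the array labelled DMSO replicate 3 it stood at 10.85, the lowest of the 5.

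DNAJB9, whose product ERdj4 directs misfolded chains to BiP and to degradation, rose most. Its level was 8.33 and 8.44 with celastrol and 7.06 and 7.21 with DMSO, and the groups did not overlap. The change was 1.25 (SE 0.0767, limma adjusted p = 0.0466), or 2.37-fold, with a 95% interval from 1.01 to 1.48. DMSO replicate 3 was lower still, at 5.49. DNAJC3, which encodes the inhibitor of PERK known as p58IPK and is also a BiP cochaperone, stood at 6.27 on both celastrol arrays and at 5.73 of DMSO replicates 1 and 2. It rose by 0.54 (SE 0.0263, limma adjusted p = 0.0377). Its replicates differed by so little that this SE is close to the smallest of any gene, 0.0262, which the fit gives to genes without spread. DNAJC10, a J-domain protein that reduces disulfide bonds before degradation, had overlapping groups and a change of 0.10 (SE 0.0906).

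SDF2L1 and MANF encode small lumenal proteins that work with BiP and are induced by unfolded proteins. SDF2L1 stood at 7.87 and 7.85 with celastrol and at 7.01 and 7.07 with DMSO. It rose by 0.82 (SE 0.0363, limma adjusted p = 0.0369), the smallest adjusted p among the members. On DMSO replicate 3 it stood at 8.63, above both celastrol arrays. MANF stood at 10.54 and 10.46 with celastrol and at 9.79 and 9.81 with DMSO. It rose by 0.70 (SE 0.0432, limma adjusted p = 0.0466), and DMSO replicate 3, at 9.90, lay near the other DMSO arrays.

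The large chaperones next to BiP had smaller differences. HSP90B1, the HSP90 of the lumen also called GRP94, stood at 11.06 and 11.09 with celastrol and 10.80 and 10.69 with DMSO, a change of 0.33 (SE 0.0517, limma adjusted p = 0.114). HYOU1, the nucleotide exchange factor of BiP, had a change of 0.25 (SE 0.0404, limma adjusted p = 0.114). In both the groups did not overlap, and neither passed the threshold. SERPINH1, a collagen chaperone with the heat shock element shown above, lay little above the dim filter, at 4.88 and 4.67 with celastrol and 4.68 and 4.73 with DMSO. Its groups overlapped, with a change of 0.07 (95% interval -0.21 to 0.34), and it stood at 5.80 on DMSO replicate 3.

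The lectin chaperones hardly differed. CALR and CANX encode calreticulin and calnexin, which hold glycoproteins by their sugars, and UGGT1 encodes the enzyme that sends unfolded glycoproteins back to them. CALR stood at 10.33 and 10.22 with celastrol and at 10.20 and 10.22 with DMSO. The change was 0.06, and its 95% interval of -0.09 to 0.22 lies below that of HSPA5, which starts at 0.55, although both promoters carry an ERSE. CANX had a change of 0.12 (95% interval -0.00236 to 0.24) and UGGT1 one of -0.06 (95% interval -0.30 to 0.18).

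Among the disulfide enzymes, 0 of 8 passed by limma, with an unadjusted p under 0.05 for PDIA4 and ERP44 alone (7.7% of all genes reached that on the higher side). With 0.58% of all genes called higher, 0 calls in so small a group is close to that share. The same holds for the translocation, degradation and sensor genes below. PDIA4, an oxidoreductase of the lumen, stood at 9.04 and 9.15 with celastrol and at 8.66 and 8.67 with DMSO. The change of 0.43 (SE 0.0508, limma adjusted p = 0.0824) had groups that did not overlap. ERP44, which retains client proteins and ERO1 between the endoplasmic reticulum and the Golgi, stood at 9.27 on both celastrol arrays and at 8.83 and 8.92 with DMSO, a change of 0.40 (SE 0.0445, limma adjusted p = 0.0792). It passed under quantile normalization only. The other 6, namely P4HB, PDIA3, PDIA5, PDIA6, the PDI-like ERP29 and ERO1A, the oxidase that recharges PDI, had changes between -0.04 and 0.09 and a 95% interval within 0.32 on either side of 0. The median of the group was 0.07.

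For the translocation genes the test also called 0 of 7 by limma, with 3 at an unadjusted p under 0.05, but all 7 changes were above 0, with a median of 0.20, or 0.0747 without DMSO replicate 1. SERP1, a small protein that guards new membrane proteins at the translocon, stood at 11.46 and 11.42 with celastrol and at 10.87 and 11.12 with DMSO. Its change was 0.45 (SE 0.106, limma adjusted p = 0.178). SSR1, a subunit of the translocon-associated complex, had a change of 0.32 (SE 0.0424, limma adjusted p = 0.0947), and SEC61A1, the channel itself, one of 0.23 (SE 0.0309, limma adjusted p = 0.0963). Both celastrol arrays lay above both DMSO arrays in these 3 genes and in SEC62 and SEC63. That is 5 of the 7, where it held for 16.4% of all genes. SEC61B, SSR3, SEC62 and SEC63 had changes of 0.20, 0.15, 0.09 and 0.07, and each of their 95% intervals included 0.

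HERPUD1 had the largest change of the degradation genes, and the others ran from -0.10 to 0.37. HERPUD1 encodes a membrane scaffold of the ubiquitin ligase complex. It stood at 10.94 and 10.77 with celastrol and at 9.66 and 9.77 with DMSO, and was lowest on DMSO replicate 3, at 8.51. The change of 1.14 (SE 0.0870), or 2.20-fold, was the second largest of all members, but missed the threshold (limma adjusted p = 0.0583). It passed under quantile normalization (limma adjusted p = 0.0125), median centring (0.0246) and averaging of probe sets (0.0423). SEL1L, the partner of the ubiquitin ligase SYVN1, stood at 8.53 and 8.45 with celastrol and at 8.14 and 8.21 with DMSO, a change of 0.32 (SE 0.0489, limma adjusted p = 0.110). These were also the only degradation genes with an unadjusted p under 0.05, and by limma 0 of the 7 tested passed. DERL2, a channel-like Derlin, had a change of 0.37 with a wide 95% interval, from -0.10 to 0.84, and EDEM1, which trims mannose from misfolded glycoproteins, one of 0.11. DERL1, the lectin gene OS9 and VCP, the ATPase that pulls chains out of the membrane, had changes of -0.10, -0.02 and -0.02. The median of the group was 0.11, and with DMSO replicate 1 left out it was -0.02.

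Of the sensors, 0 of the 3 tested passed by limma, with EIF2AK3 and XBP1 at an unadjusted p under 0.05. EIF2AK3 encodes PERK. It stood at 6.16 and 6.04 with celastrol, at 5.42 and 5.53 with DMSO and at 6.52 on DMSO replicate 3. The change of 0.62 (SE 0.0698, limma adjusted p = 0.0792), or 1.54-fold, had groups that did not overlap, and it passed under quantile normalization (0.0311) and median centring (0.0432). XBP1, whose mRNA is spliced by IRE1, stood at 8.43 and 8.59 with celastrol and at 8.24 and 8.12 with DMSO, a change of 0.33 (SE 0.0827, limma adjusted p = 0.192). The measured intensity does not tell spliced from unspliced XBP1. ATF6 had the same value, 6.71, on all 4 arrays, so its spread is set by the fit alone and its change was 0. ERN1, which encodes IRE1, was below the dim filter, at 4.38 on both celastrol arrays and 4.46 and 4.26 with DMSO, and was not tested.

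In size, 7 members had a change of at least 0.5, a size reached by 1.68% of all genes: the 5 called genes, HERPUD1 and EIF2AK3. No member had a change of -0.5 or less. Of the 32 members tested and not called, 31 had a 95% interval that excluded both a doubling and a halving, with HERPUD1 as the exception, and 21 had an interval that included 0. An interval lying between a halving and a doubling was found for 35 of the 37 members and for 7917 of the 8108 genes tested. It therefore does not set these members apart. Ties limit these spreads, since 6 of the 37 had identical values on both arrays of 1 group, and ATF6 on both arrays of each. CALR, DNAJC10, PDIA3, PDIA5, ERO1A, ERP29, SEC61B, EDEM1 and VCP also had an identical value on a celastrol and a DMSO array. Ties of that kind limit what an overlap or a small change of these genes shows. None of the 5 called genes had tied values.

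**Figure D2:**
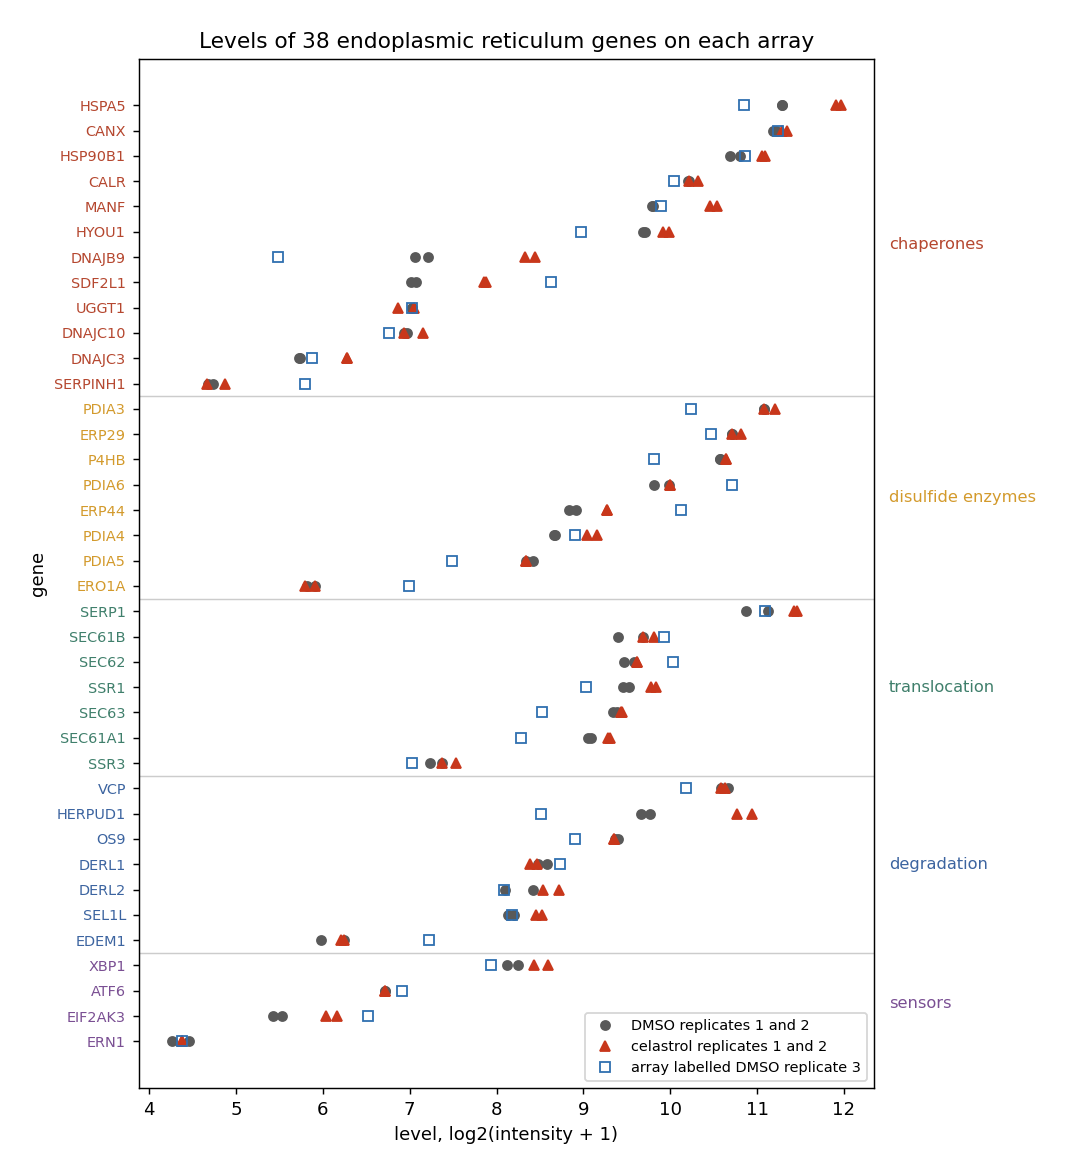
Level of each of the 38 genes, log2(intensity + 1), on the celastrol arrays (triangles), DMSO replicates 1 and 2 (filled circles) and the array labelled DMSO replicate 3 (open squares). Triangles sit to the right of both circles for 22 of the 37 tested genes, among them the 5 called genes, HERPUD1 and EIF2AK3. This held for 16.4% of all genes. The square lies left of the circles for HSPA5 (10.85) and right of the triangles for SDF2L1 (8.63).

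DMSO replicate 3 differed from DMSO replicates 1 and 2 in these genes in both directions. It was over 2-fold lower for DNAJB9 and HERPUD1, with differences of -1.65 and -1.21 on the log2 scale. It was over 2-fold higher for 6 members, SDF2L1, SERPINH1, ERO1A, ERP44, EDEM1 and EIF2AK3, by 1.04 to 1.59. In all 21.6% of the members were over 2-fold apart, against 29.7% of all genes tested. Of 7 plasma cell markers, 6 were over 2-fold higher on it than on the other arrays, and SDC1 was over 2-fold lower. With this array in the fit, limma called 0 members and 0% of all genes, with 10 members at an unadjusted p under 0.05, all of them higher. Of 8108 genes, 149 were higher and 103 lower at that level. The change of SDF2L1 then shrank to 0.29, that of DNAJB9 grew to 1.80, and the sign turned for 8 members, SERPINH1, PDIA5, PDIA6, ERP44, SEC62, EDEM1, OS9 and VCP. None of these 8 had been called on the 4 arrays.

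On the 4 arrays compared, the summed level of the 12 leukocyte markers was 51.6 to 51.9 with celastrol and 51.6 with both DMSO arrays. The summed level of the 10 luminal markers was 88.0 to 89.2 with celastrol and 91.1 to 91.5 with DMSO. TMPRSS2, an androgen-regulated luminal gene, fell by 1.08 among them (limma adjusted p = 0.0369). Of the 9 luminal markers tested, 7 had a change below 0 and 2 a change above it. The part of this shift in the endoplasmic reticulum genes was not tested.

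Several genes were measured by more than 1 probe set. There were 71 probe sets naming a member alone, of which 66 passed the dim filter, and 16 members had several. The 5 called genes each had a single probe set past the filter. The second DNAJB9 probe set was dim, at 4.81 and 4.41 with celastrol and 4.14 and 4.05 with DMSO. Of the 29 probe sets that did not stand for their gene, limma called 0. Of all 13329 probe sets kept, 0.54% were called higher, and 0 of 29 is close to that share. An unadjusted p under 0.05 was found for 6 of the 29, all of them higher, and for 7.7% of all genes on the higher side.

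SERP1 had 3 probe sets, all with a change above 0. 2 of them had changes of 0.88 (SE 0.0863, limma adjusted p = 0.0700) and 0.62 (SE 0.0655, limma adjusted p = 0.0746), against 0.45 for the one that stands for the gene. SSR1 had 3 probe sets between 0.28 and 0.32 and 1 at -0.02. SEL1L had 0.32 on the probe set that stands for it and -0.14 and -0.01 on the others, so its difference rests on 1 probe set. HSP90B1 had changes of 0.33, 0.20, 0.19 and 0.04. The probe sets of CALR, CANX, PDIA6, SEC63, SSR1, SEL1L and VCP lay on both sides of 0, and none were called in opposite directions.

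**Figure D3:**
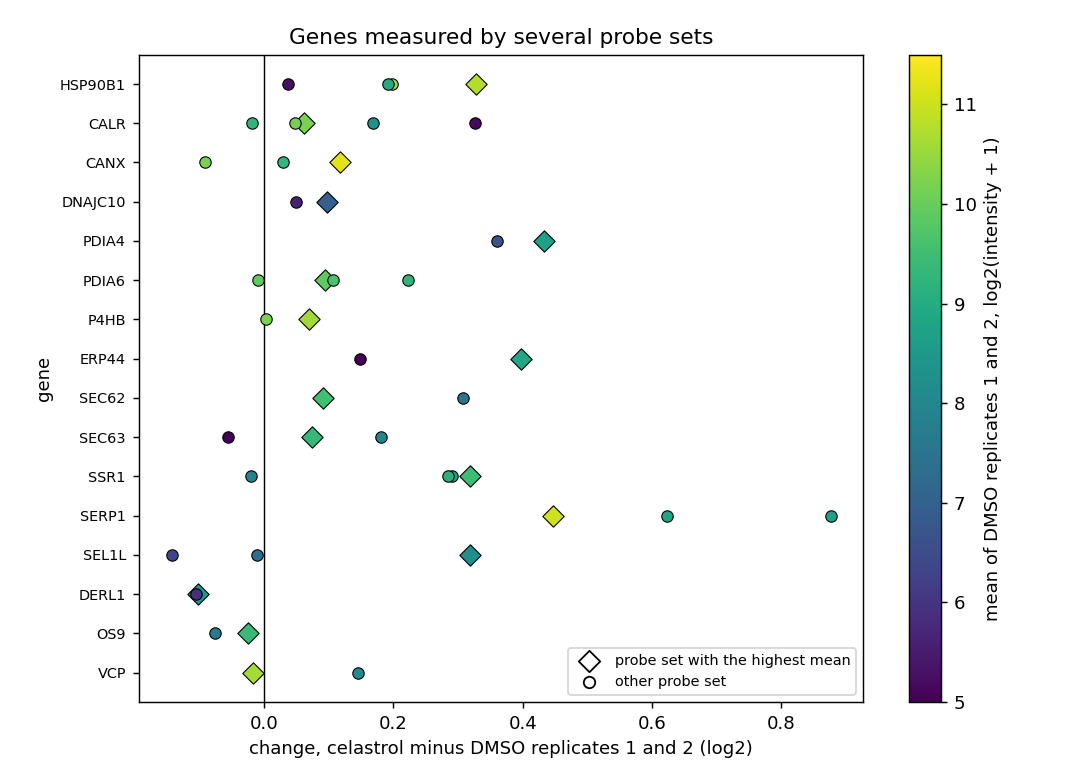
Change of every probe set past the dim filter for the 16 genes with several (celastrol minus DMSO replicates 1 and 2, log2), with diamonds for the probe set that stands for the gene and colour for its DMSO level. SERP1 lies to the right of 0 on all 3 of its probe sets, while SEL1L lies there on 1 of 3.

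Set beside the promoters, the elements and the calls overlapped in part. Of the 11 genes with an ERSE or ERSE-II, 10 were measured and HSPA5 and SDF2L1 were called. The other 8 had changes of 0.06 for CALR, 0.09 for PDIA6, 0.12 for CANX, 0.25 for HYOU1, 0.33 for HSP90B1 and XBP1, 0.45 for SERP1 and 1.14 for HERPUD1. All 10 changes were above 0, as were 30 of the 37 members tested and 42.3% of all genes, and 0.58% of all genes were called higher. DNAJB9, MANF and DNAJC3 were called and had none of the searched letters in their windows, which says nothing about which factors act on them.

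The neighbouring steps of the pathway were followed through 7 lists of 114 other genes, of which 96 were tested and 2 were called. Over all genes 1.06% were called. Both called genes belong to the list named PERK output. PERK activity was not measured, and whether PERK lay behind these changes was not tested. DDIT3, which encodes CHOP, stood at 9.15 ± 0.0755 (SD, n = 2) with celastrol and at 7.10 ± 0.139 (SD, n = 2) with DMSO and rose by 2.05 (SE 0.0927, limma adjusted p = 0.0369). CHAC1, a glutathione-degrading enzyme induced by ATF4, rose by 1.40 (SE 0.0605, limma adjusted p = 0.0369). The median over the 6 PERK output genes was 1.24. ATF4 itself had a change of 0.66 (limma adjusted p = 0.0608), ATF3 one of 1.98 (limma adjusted p = 0.0601) and TRIB3 one of 1.09 (limma adjusted p = 0.0583), while PPP1R15A, a phosphatase subunit that ends the PERK signal, had one of 0.09.

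The other 6 lists had 0 calls by limma, where 1.06% of all genes were called, and small medians. In lists of this size a count of 0 is close to that share. At an unadjusted p under 0.05 by limma, 7.7% of all genes were higher and 12.4% lower. COPII coat genes and cargo receptors, which carry folded proteins out, had a median of 0.11 over 18 genes, with 5 higher and 0 lower at an unadjusted p under 0.05. Those of smallest p were SEC23B at 0.24 and MCFD2 at 0.29. Other lumenal folding factors had a median of 0.07 over 21 genes, with 3 higher and 1 lower at that level. TMX1, a membrane-bound member of the PDI family, had a change of -0.45 and CALU, a calcium-binding protein, one of 0.14. Signal recognition particle, signal peptidase and other translocon genes had a median of 0.05 over 15 genes, with 3 higher and 1 lower, led by SRP54 at 0.19 and SSR2 at 0.20. N-glycosylation and glucose trimming genes had a median of 0.01 over 12 genes, with 1 higher and 0 lower. That gene was RPN1 at 0.14, and MAGT1 followed at 0.19.

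Other degradation genes had a median of -0.04 over 14 genes, with 0 higher and 3 lower at an unadjusted p under 0.05. Over all genes 7.7% were higher and 12.4% lower at that level, so counts this small do not set the list apart. UBQLN2, a ubiquitin-binding shuttle, stood at -0.17, the ubiquitin-conjugating enzyme UBE2G2 at -0.47 and the mannosidase MAN1B1, named after its value was seen, at -0.37. Sensor processing genes and the CREB3 family had a median of 0.02 over 10 genes, with 1 higher and 3 lower. CREB3L2, a transcription factor related to ATF6, had a change of 0.42 (limma adjusted p = 0.0777), and MBTPS2, the protease that makes the second of the cuts releasing ATF6, one of -0.45 (limma adjusted p = 0.174). Over all 96 genes 61 changes were above 0, with a median of 0.05. Of the 8108 genes tested 42.3% were above 0, with a median of -0.02.

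**Figure D4:**
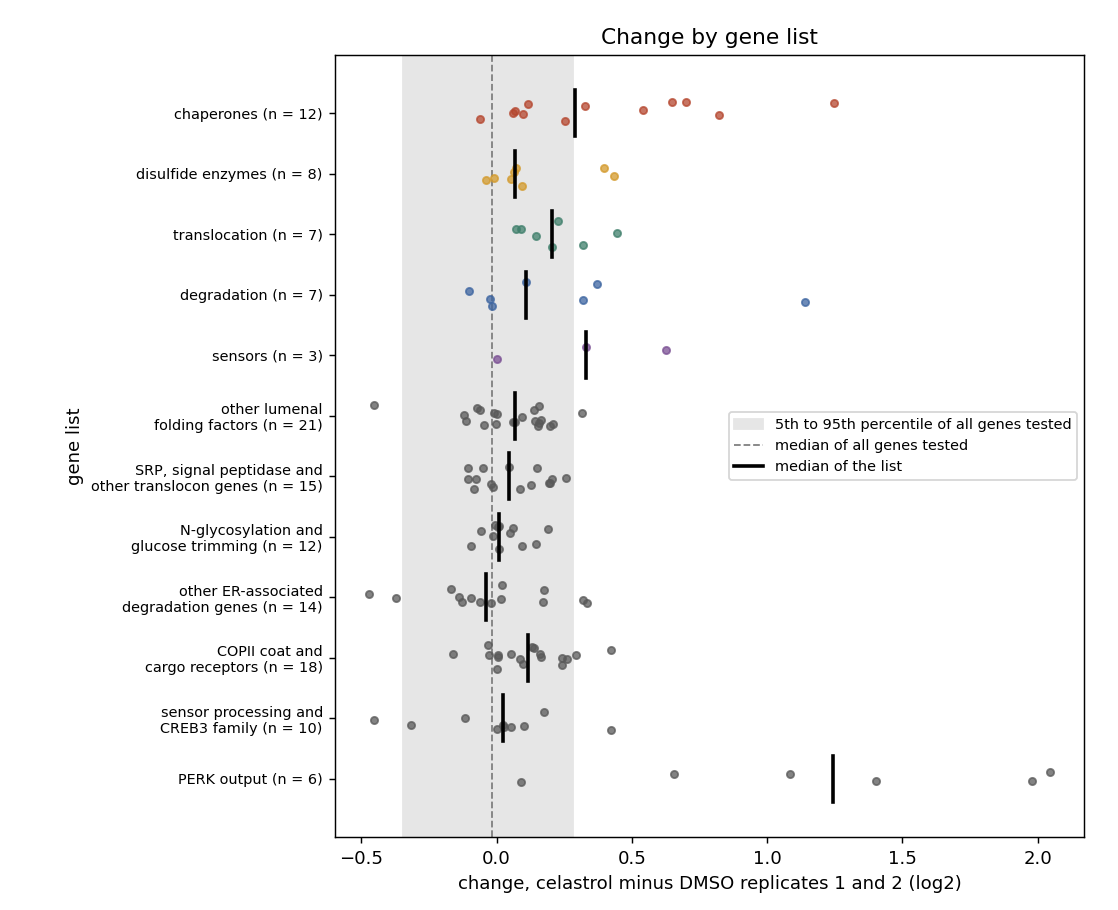
Change of each tested gene (celastrol minus DMSO replicates 1 and 2, log2) by list, members in colour and the 7 other lists in grey, with list medians as black bars and the 5th to 95th percentile of all genes tested as a shaded band. Member medians were 0.29 for chaperones, 0.07 for disulfide enzymes, 0.20 for translocation, 0.11 for degradation and 0.33 for sensors. Of the 7 other lists, PERK output had the largest median, 1.24, and the other degradation genes the smallest, -0.04.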

How the data were processed

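Labelled cRNA from the cells' total RNA was hybridised to Affymetrix arrays (per the labels). The deposited values are intensities of 22215 probe sets, not on a log scale. The authors made them with RMA, per the submitters' processing notes. Its version is not given in the sources used here. Total intensity per array ran from 4939400 to 5348500, and the number of arrays limits the precision. Levels were taken as log2(intensity + 1) without further normalization. Genes were named through the platform annotation, where 19724 probe sets name 1 gene, 568 several and 1923 are unnamed here.

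Celastrol was compared with DMSO replicates 1 and 2 by limma 3.58.1 (R 4.3.3; lmFit and eBayes, two-sided) on the 13329 probe sets left after the 40% of lowest mean over all 5 arrays were removed, with Benjamini-Hochberg adjustment over all of them and a threshold of 0.05. The fit has 2 residual degrees of freedom. It was tested on simulated data. Proteins of the members were not used here. Members, lists, the filter and the arrays were chosen with earlier results of these data known. By rule every member is named. Values on each of the 4 arrays compared are given for called members, for changes of at least 0.5 and for sensors. Of the other lists, the called genes or the 2 of smallest p are named. ATF4, ATF3, TRIB3 and PPP1R15A are named outside that rule. Values on each array are also given for some members outside the rule, chosen after they were seen. The 14 alternatives changed filter, probe set choice, arrays, normalization, pseudocount, variance model, block and probe set averaging, or left out 1 array.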

Additional observations from a re-analysis of the deposited data

How the results depend on the processing

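Of 14 alternatives, the same 5 members were called under 7: filter and probe set choice on the 4 arrays, quantile normalization, median centring, a pseudocount of 16, trend variance, robust variance and the mean of probe sets. By limma 0 members were called, chaperones included, without the filter (18 of 38 at an unadjusted p under 0.05), on all 5 arrays (10 of 37), and with 1 array left out (0 to 0 in each case). The replicate number as a block gave 0 called members and 0 genes in all, with 15 members at an unadjusted p under 0.05 and 1 residual degree of freedom fewer. All members at that level were higher in these settings. Of all genes, 517 of 8108 were higher and 836 lower with the block. Without the filter 764 of 12165 were higher and 1062 lower, and on all 5 arrays 149 of 8108 were higher and 103 lower. The numbers were not shown to pair the arrays (r = -0.0197 between the replicate differences of both groups). Over all genes the count of 86 moved to 2 without the filter, 0 on all 5 arrays, 273 under quantile normalization, 194 under median centring and 144 with the mean of probe sets, and was 0 with any of the 4 arrays left out.

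Quantile normalization called 8 members, adding 1 disulfide enzyme, 1 degradation gene and 1 sensor. Median centring added 1 degradation gene and 1 sensor, and the mean of probe sets 1 degradation gene. On all 5 arrays the median change was 0.28 for members, 0.19 for disulfide enzymes and 0.36 for translocation genes. The chaperone median was 0.31 under median centring and 0.22 with the mean of probe sets, and that of sensors 0.17 without the filter, where ERN1 joins. With 1 array left out the medians ran from 0.0848 to 0.23 for members, 0.27 to 0.31 for chaperones, 0.0578 to 0.10 for disulfide enzymes, 0.0747 to 0.24 for translocation genes, -0.0174 to 0.24 for degradation genes and 0.25 to 0.41 for sensors. Without an array left out and on the 4 arrays, the sign turned for ERO1A and VCP only. With 1 array left out it turned for 6 members (SERPINH1, UGGT1, DNAJC10, ERO1A, EDEM1 and VCP), none of them called. SERPINH1 lay little above the dim filter and ERN1 below it, where signal over background is the limit.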
